A study of Mactra quadrangularis with 9 samples.

Results

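Monocarboxylate transporters carry small organic acids such as lactate, pyruvate and ketone bodies across cell membranes. They were followed here in the gill of a clam, labelled Mactra quadrangularis and named Mactra veneriformis in the title of the series, as genes of the deposited table whose description contains "monocarboxylate transporter" and whose FPKM (fragments scaled by gene length and library size) averaged at least 1 over the 9 libraries. Of 24722 genes, 79 carried the description and 37 of those passed the level filter. The clams had spent 24 h at 2 mg/L, at 4 mg/L or, as controls, at 7.5 mg/L dissolved oxygen, with 3 gill RNA libraries per level. All groups were held at 20 °C and a salinity of 27 and were not fed, and the low oxygen levels were reached by bubbling nitrogen under a film that sealed the surface. Whether the 3 libraries of a level were made from separate clams, how many clams each holds and which tank they came from is left unsaid in the labels, so the p-values rest on the spread among libraries, and that spread may be technical.

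In mammals, proton-coupled monocarboxylate transporters (MCTs) move lactate and pyruvate together with a proton in the direction the gradients set, and some need a partner glycoprotein to reach the membrane. Other members of the same family carry thyroid hormones, creatine or carnitine, and several have no known substrate. The sodium-coupled transporters (SMCTs) belong to another family and use the sodium gradient to take up lactate, pyruvate, short-chain fatty acids and nicotinate. When oxygen runs short in bivalves, pyruvate from glycolysis can be reduced to opines as well as lactate, and succinate, acetate and propionate are other known end products.

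Among the 37 genes, 30 were described as MCTs and 7 as SMCTs. The MCT names were MCT12 for 12 genes, MCT5 for 5, MCT2 for 4, MCT14 for 4, MCT9 for 3, and MCT4 and MCT6 for 1 each. The SMCT names were SMCT1 for 6 genes and SMCT2 for 1. These names are the table's matches to other animals, not tested substrates. Its gene ontology column gave all 7 SMCT-described genes sodium-dependent multivitamin transport, and gave lactate transport to 7 MCT-described genes and monocarboxylic acid transport to 18. Mve15G008650, described as MCT5-like, was annotated as a transaminase and not as a transporter. Copies that share a name may share reads; the way such reads were counted was not given in the sources used here, nor its effect tested.

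The largest count of changes was at 4 mg/L, where 22 of the 37 genes were higher and 9 lower than at 7.5 mg/L, and 6 did not pass the test (edgeR, quasi-likelihood test, Benjamini-Hochberg adjusted p under 0.05 over all 15397 genes tested). Of all genes tested, 35.4% were higher and 34.5% lower in that comparison, 69.9% in either direction. At 2 mg/L, 11 transporter genes were higher and 12 lower than at 7.5 mg/L and 14 did not pass. All genes stood at 31.5% higher and 32% lower, 63.5% in either direction, which is close to the transporters' shares. Between the low levels, 9 were higher and 17 lower at 2 mg/L than at 4 mg/L, against 31.6% and 32.1% of all genes, or 63.7% in either direction. The libraries of the compared levels did not overlap for 25 genes at 2 against 7.5 mg/L, 32 at 4 against 7.5 mg/L and 30 at 2 against 4 mg/L, where this held for 68.3%, 74.2% and 68% of all genes. The median log2 fold change of the 37 genes was -0.07 at 2 mg/L and 0.75 at 4 mg/L, each against 7.5 mg/L, beside -0.03 and -0.01 for all genes tested. Changes of at least 2-fold were 4 higher and 4 lower at 2 mg/L, where 13.8% and 11.3% of all genes moved that far, and 16 higher and 6 lower at 4 mg/L, where 17.9% and 14.8% of all genes did. A gene that passed the level filter through a single group had to differ, so these counts describe the genes that passed.

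**Figure D1:**
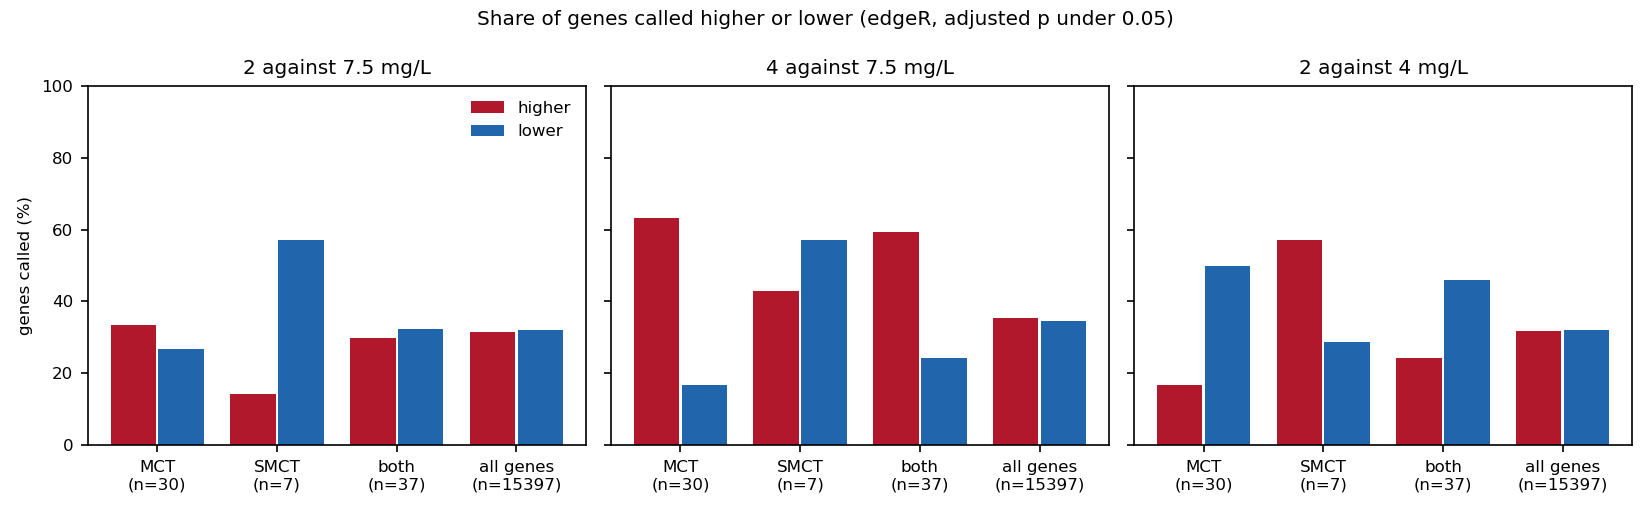
Share of genes called higher (red) or lower (blue), in percent, in each of the 3 comparisons, for the 30 MCT-described genes, the 7 SMCT-described genes, the 37 together and all 15397 genes tested. Of the MCT-described genes, 19 were higher and 5 lower at 4 against 7.5 mg/L, the tallest bar of the middle panel.

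The most frequent pattern was a level at 4 mg/L above both other oxygen levels, found for 16 of the 37 genes (43.2%) beside 20.3% of all genes tested. A level at 4 mg/L below both others was found for 6 genes (16.2%, beside 20.1% of all genes). Both low oxygen levels were above 7.5 mg/L for 10 genes (27%, beside 20.3%) and below it for 6 (16.2%, beside 18.9%). Higher at 4 mg/L but lower at 2 mg/L than at 7.5 mg/L were 4 genes, a pattern of 4.87% of all genes, and the opposite held for 1 gene, beside 4.8%. No pair of levels differed by the test for 3 genes, Mve10G011130, Mve13G009420 and Mve16G012660, beside 12.5% of all genes. With reads in bulk tissue, fewer cells of a type and less RNA per cell cannot be told apart.

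**Figure D2:**
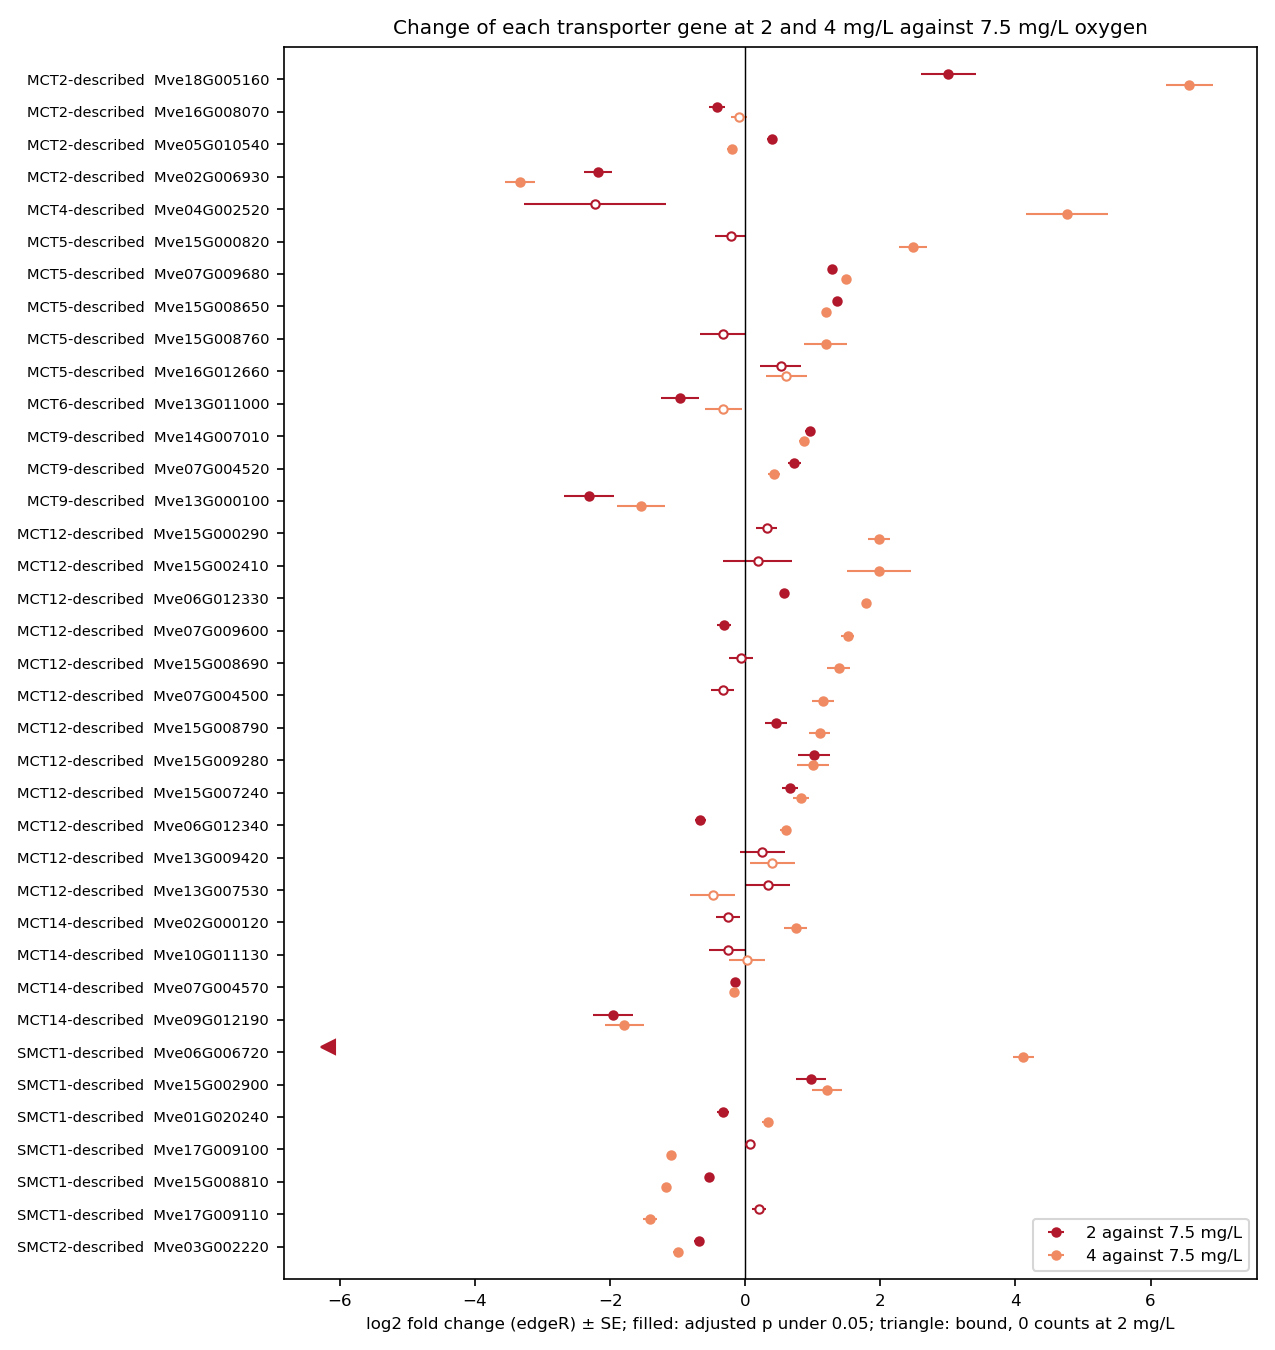
Fitted log2 fold change with its standard error for each of the 37 genes, grouped by the name in its description, at 2 mg/L (dark red) and 4 mg/L (orange) against 7.5 mg/L. Filled points passed the test, open points did not, and the triangle for Mve06G006720 is the bound from 0 counts at 2 mg/L. Of the 12 MCT12-described genes, 10 have filled orange points right of 0.

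The markers of the tissue moved as well. Summed over 76 tested genes of cilia, the defining structure of gill epithelium, levels were 8074 to 8154 at 2 mg/L, 7662 to 7763 at 4 mg/L and 8875 to 8935 at 7.5 mg/L, in counts scaled by library total and edgeR's TMM factors to a common unit (CPM, used for all values below unless FPKM is named). The 12 muscle markers summed to 9492 to 11856 at 2 mg/L, 2632 to 2859 at 4 mg/L and 2724 to 2813 at 7.5 mg/L, with 9 of the 12 higher and 1 lower at 2 than at 7.5 mg/L, and 7 higher and 3 lower at 4 than at 7.5 mg/L. The 22 haemocyte markers summed to 1745 to 1751 at 2 mg/L, 3988 to 4004 at 4 mg/L and 2486 to 2563 at 7.5 mg/L. Most of the sum at 4 mg/L was 1 transglutaminase, Mve06G014840, with means of 528 at 2 mg/L, 2832 at 4 mg/L and 853 at 7.5 mg/L, while by genes 16 of the 22 were lower and 4 higher at 2 mg/L, and 12 lower and 6 higher at 4 mg/L, than at 7.5 mg/L. The 15 digestive gland markers summed to 2288 to 2327 at 2 mg/L, 2640 to 2713 at 4 mg/L and 2498 to 2551 at 7.5 mg/L. Of the 76 cilia genes, 20 were higher and 36 lower in the comparison of 2 with 7.5 mg/L. In that of 4 with 7.5 mg/L, 13 were higher and 42 lower. Among all genes tested, 31.5% were higher and 32% lower in the first comparison, and 35.4% and 34.5% in the second. The part of any of the marked cell types in the transporter results was not tested.

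Per length, SMCT1-described and MCT5-described genes led the transporters, and their order differed at each oxygen level. At 2 mg/L the leading genes were Mve17G009100 with 73.9 ± 3.92 FPKM, Mve15G008650 with 54.7 ± 3.13, Mve07G009680 with 37.6 ± 1.08 and Mve15G008810 with 37.0 ± 2.86 (SD, n = 3), the last 2 with overlapping libraries. At 4 mg/L they were Mve15G008650 with 53.4 ± 1.25 FPKM, Mve07G009680 with 47.3 ± 1.45, Mve17G009100 with 36.3 ± 1.66 and Mve06G012330 with 33.7 ± 0.285, with no overlap between neighbours in that order. At 7.5 mg/L they were Mve17G009100 with 80.8 ± 4.04 FPKM, Mve15G008810 with 61.5 ± 2.21, Mve15G008650 with 24.3 ± 1.88 and Mve07G004570 with 21.1 ± 0.351, again with no overlap. The leading pair was 1 of each kind at 2 mg/L, both MCT5-described at 4 mg/L and both SMCT1-described at 7.5 mg/L.

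Summed over all 30 MCT-described genes, FPKM was 230.1 ± 5.01 at 2 mg/L, 339 ± 1.05 at 4 mg/L and 186 ± 3.41 at 7.5 mg/L (SD, n = 3). The 7 SMCT-described genes summed to 146 ± 4.08 FPKM at 2 mg/L, 127 ± 1.75 at 4 mg/L and 193 ± 4.81 at 7.5 mg/L. The sums of the 3 levels did not overlap for either kind. FPKM carries no TMM factor, and the same sums in CPM, where long genes weigh more, were 946 ± 21.1, 1157 ± 16.3 and 611 ± 3.41 for the MCT-described genes at 2, 4 and 7.5 mg/L, and 434 ± 8.74, 329 ± 9.9 and 502 ± 12 for the SMCT-described genes. The abundant pair Mve17G009100 and Mve15G008810 made up 76% of the SMCT sum in FPKM at 2 mg/L, 49.2% at 4 mg/L and 73.6% at 7.5 mg/L.

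**Figure D3:**
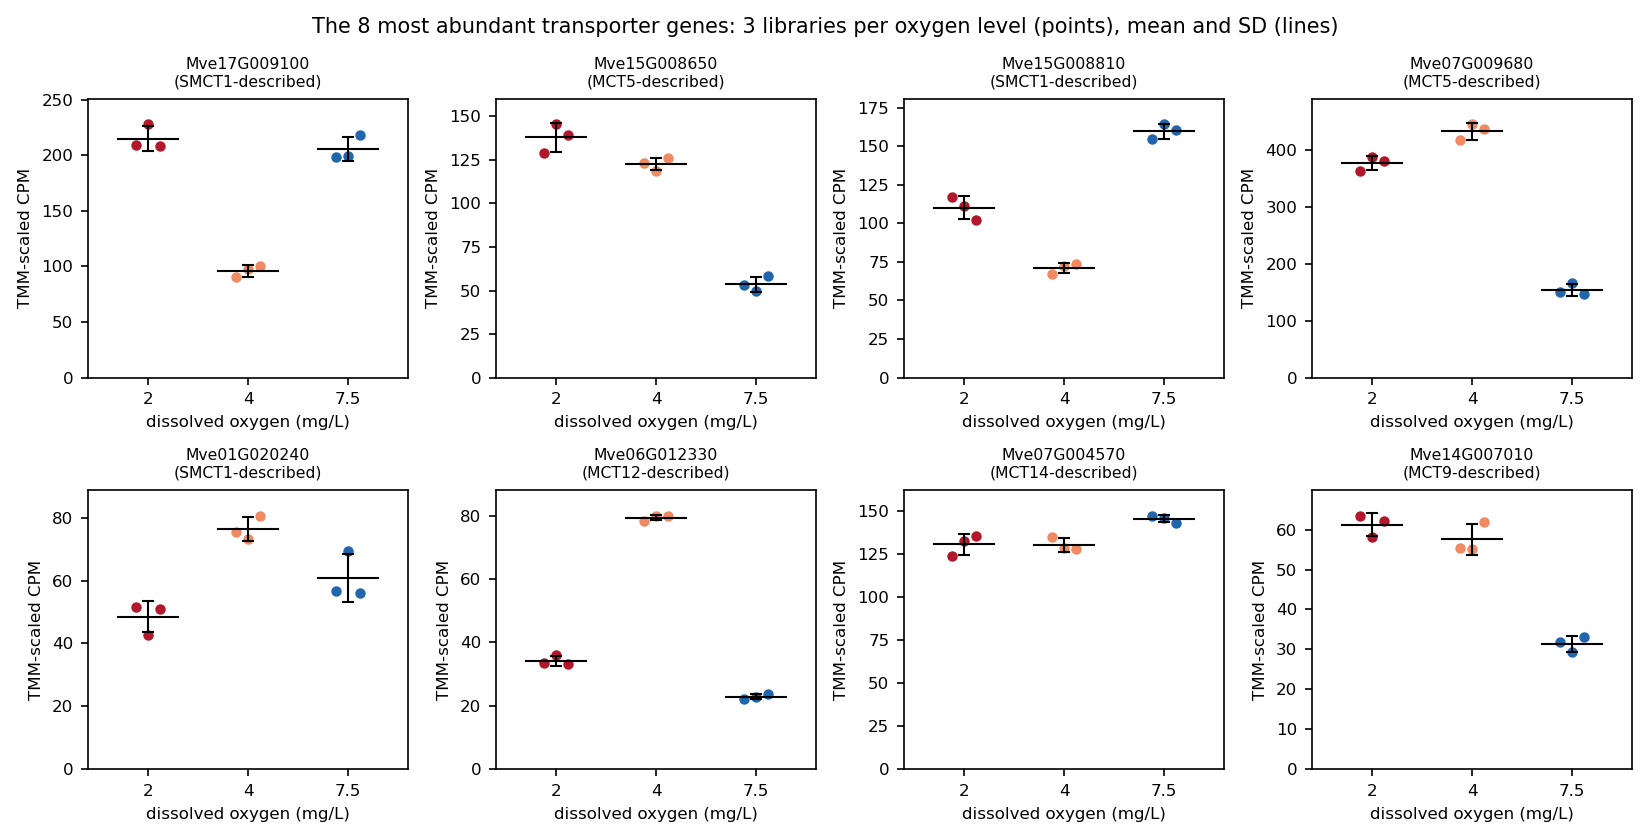
Level in TMM-scaled CPM (vertical axis, from 0) at 2, 4 and 7.5 mg/L oxygen for the 8 transporter genes with the highest mean FPKM: points are libraries, lines the mean and SD of 3. The MCT5-described Mve07G009680 and Mve15G008650 lie above the 7.5 mg/L libraries at both low levels, and the 4 mg/L libraries of the SMCT1-described Mve17G009100 lie below all its others.

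MCT5 has no established substrate in mammals, and 2 of the 5 genes with this name were abundant and higher at both low oxygen levels. Among the 8 most abundant transporter genes, the MCT12-described Mve06G012330 and the MCT9-described Mve14G007010 were higher at both as well. Mve07G009680, on chromosome 7 (chr7:32570614-32595668, minus strand, in the unnamed assembly of the deposited table), had 363, 388 and 380 CPM at 2 mg/L, 416, 445 and 436 CPM at 4 mg/L, against 150.1, 166 and 147 CPM at 7.5 mg/L. Every library at the low levels was more than double the highest at 7.5 mg/L, and the libraries at 4 mg/L all lay above those at 2 mg/L. The fold change was 2.45 at 2 mg/L (log2 1.29 ± 0.0482 SE, edgeR adjusted p = 5.19e-13) and 2.81 at 4 mg/L (log2 1.49 ± 0.0482, adjusted p = 5.6e-14), and 2 mg/L was 1.15-fold lower than 4 mg/L (adjusted p = 0.00142). Mve15G008650 had 129, 146 and 139.6 CPM at 2 mg/L, 123, 119 and 126 at 4 mg/L, against 53.0, 49.4 and 58.2 at 7.5 mg/L. It was 2.58-fold higher at 2 mg/L and 2.29-fold higher at 4 mg/L than at 7.5 mg/L (edgeR adjusted p = 1.09e-11 and 4.51e-11). Its difference between the low levels, 1.12-fold (adjusted p = 0.0251), was lost without 4 mg/L replicate 1 or 2, or 2 mg/L replicate 2 or 3 (adjusted p = 0.0516, 0.0894, 0.117 and 0.0616). With total counts or no level filter it was lost as well (edgeR adjusted p = 0.579 and 0.0619). The same held in limma on log2 FPKM with either pseudocount (adjusted p = 0.66 and 0.663).

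The other MCT5-described genes were rarer. Mve15G000820 had 3.29, 2.1 and 2.31 CPM at 2 mg/L, 15.1, 17.4 and 17.7 at 4 mg/L, against 3.84, 2.31 and 2.86 at 7.5 mg/L. Only the libraries at 4 mg/L stood apart, 5.59-fold above 7.5 mg/L (edgeR adjusted p = 1.73e-08), while 2 and 7.5 mg/L overlapped (adjusted p = 0.417). Mve15G008760 was 2.28-fold higher at 4 mg/L (adjusted p = 0.00374), and Mve16G012660 passed no test, with means of 2.36, 2.50 and 1.64 CPM at 2, 4 and 7.5 mg/L.

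MCT2 and MCT4 carry lactate in mammals, MCT4 mainly out of glycolytic cells, and the genes with these names did not move as a group. Mve18G005160 (MCT2; chr18:12594077-12603226) had 1.73, 1.55 and 1.75 CPM at 2 mg/L, 20.1, 19.8 and 19.6 at 4 mg/L, against 0, 0.351 and 0.234 at 7.5 mg/L. The groups were far apart, with a fitted change of 8.04-fold at 2 mg/L (edgeR adjusted p = 6.75e-06) and 95.2-fold at 4 mg/L against 7.5 mg/L, although few counts stand behind the 7.5 mg/L values. This gene and the next passed the level filter only through their 4 mg/L libraries, so their differences at 4 mg/L are a description with no test. Mve04G002520, the only gene named MCT4, had 0, 0.137 and 0 CPM at 2 mg/L, 6.70, 5.64 and 7.26 at 4 mg/L, against 0.279, 0 and 0.438 at 7.5 mg/L. It was 27.1-fold higher at 4 than at 7.5 mg/L, the fold resting on near-empty control libraries. Its fitted difference between 2 and 7.5 mg/L did not pass (edgeR adjusted p = 0.0754), but passed without 7.5 mg/L replicate 2 or 2 mg/L replicate 2 (adjusted p = 0.00663 and 0.0193).

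The remaining MCT2-described genes were lower or changed little. Mve02G006930 had 2.38, 2.03 and 2.98 CPM at 2 mg/L, 1.11, 1.05 and 1.15 at 4 mg/L, against 10.4, 11.3 and 11.6 at 7.5 mg/L. All low-oxygen libraries lay below all control libraries, 4.52-fold lower at 2 mg/L and 10.1-fold lower at 4 mg/L (edgeR adjusted p = 1.14e-07 and 8.79e-10). Mve05G010540 had 45.0, 42.4 and 40.0 CPM at 2 mg/L, 28.2, 28.7 and 27.7 at 4 mg/L, against 32.8, 31.8 and 32.6 at 7.5 mg/L. It was 1.31-fold higher at 2 mg/L (adjusted p = 0.000216) and 1.15-fold lower at 4 mg/L (adjusted p = 0.0239), the only transporter gene with this pair of directions. The change at 2 mg/L did not pass in limma on log2 FPKM with either pseudocount (adjusted p = 0.0905 and 0.0811). The change at 4 mg/L was lost without 7.5 mg/L replicate 1 or 3 or 4 mg/L replicate 3 (adjusted p = 0.0588, 0.0563 and 0.05). Mve16G008070 was 1.34-fold lower at 2 mg/L (adjusted p = 0.00454), with no call at 4 mg/L.

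MCT12 transports creatine in humans, and the 12 genes with this name were the largest group. At 4 mg/L 10 were higher than at 7.5 mg/L and 0 lower, with 2 not passing, while at 2 mg/L 4 were higher, 2 lower and 6 did not pass. Of all genes, 35.4% were higher and 34.5% lower at 4 mg/L. At 2 mg/L 31.5% of all genes were higher and 32% lower, so the share of MCT12-described genes that was higher was near that of all genes. Between the low levels, 8 were lower and 1 higher at 2 than at 4 mg/L, beside 32.1% and 31.6% of all genes. Their median log2 fold change was 0.28 at 2 mg/L and 1.12 at 4 mg/L against 7.5 mg/L. Scaled to total counts alone, the median at 2 mg/L was 0.09, with 3 genes higher and 3 lower. The most abundant of them, Mve06G012330, had 33.5, 35.9 and 33.0 CPM at 2 mg/L, 78.4, 79.8 and 80.0 at 4 mg/L, against 22.2, 22.9 and 23.6 at 7.5 mg/L. The 3 levels were cleanly separated, with folds of 1.49 at 2 mg/L and 3.46 at 4 mg/L against 7.5 mg/L (edgeR adjusted p = 1.35e-06 and 3.38e-13).

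Several MCT12-described genes were high at 4 mg/L alone. Mve15G000290 had 8.41, 6.53 and 5.33 CPM at 2 mg/L, 22.7, 20.6 and 21.1 at 4 mg/L, against 5.16, 5.52 and 5.63 at 7.5 mg/L. It was 3.94-fold higher at 4 mg/L (edgeR adjusted p = 7.4e-09), and at 2 mg/L its libraries overlapped the controls (adjusted p = 0.0995, and 0.0193 without 2 mg/L replicate 3). Mve07G009600 had 11.4, 11.5 and 10.5 CPM at 2 mg/L, 36.3, 41.3 and 41.3 at 4 mg/L, against 13.7, 14.4 and 13.3 at 7.5 mg/L. It was 2.86-fold higher at 4 mg/L and 1.24-fold lower at 2 mg/L than at 7.5 mg/L (adjusted p = 4.37e-10 and 0.0129), with no overlap in either. Mve07G004500 was 2.22-fold higher at 4 mg/L (adjusted p = 1e-05). Mve15G002410, which passed the level filter only through 4 mg/L, was 3.93-fold higher there, a difference given with no test, and had at most 3.13 CPM in any library. Mve07G004500 did not pass at 2 mg/L, where it was 1.26-fold lower (edgeR adjusted p = 0.101, and 0.0438 without 7.5 mg/L replicate 1). It passed as lower there with total counts (edgeR adjusted p = 0.0115) and in limma on log2 FPKM with either pseudocount (adjusted p = 0.0305 and 0.0252).

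Higher at both low levels were Mve15G007240, with means of 15.2, 17.1 and 9.62 CPM at 2, 4 and 7.5 mg/L (1.58-fold and 1.77-fold, edgeR adjusted p = 0.00018 and 1.34e-05), and Mve15G009280, with 5.89, 5.81 and 2.90 CPM (2.03-fold and 2-fold, adjusted p = 0.00123 and 0.00112). Mve13G009420 passed no test, with means of 2.39, 2.65 and 2.00 CPM. Mve13G007530 differed only between the low levels, with 2.95, 3.71 and 1.87 CPM at 2 mg/L and 1.72, 1.45 and 1.71 CPM at 4 mg/L. That 1.75-fold difference (adjusted p = 0.0432) was lost without any one of 6 libraries: 7.5 mg/L replicate 2, each 4 mg/L library, and 2 mg/L replicates 1 and 2 (adjusted p = 0.0505, 0.0718, 0.111, 0.067, 0.0866 and 0.196). With total counts or no level filter it was lost as well (edgeR adjusted p = 0.083 and 0.0572). The same held in limma on log2 FPKM with either pseudocount (adjusted p = 0.0864 and 0.104).

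**Figure D4:**
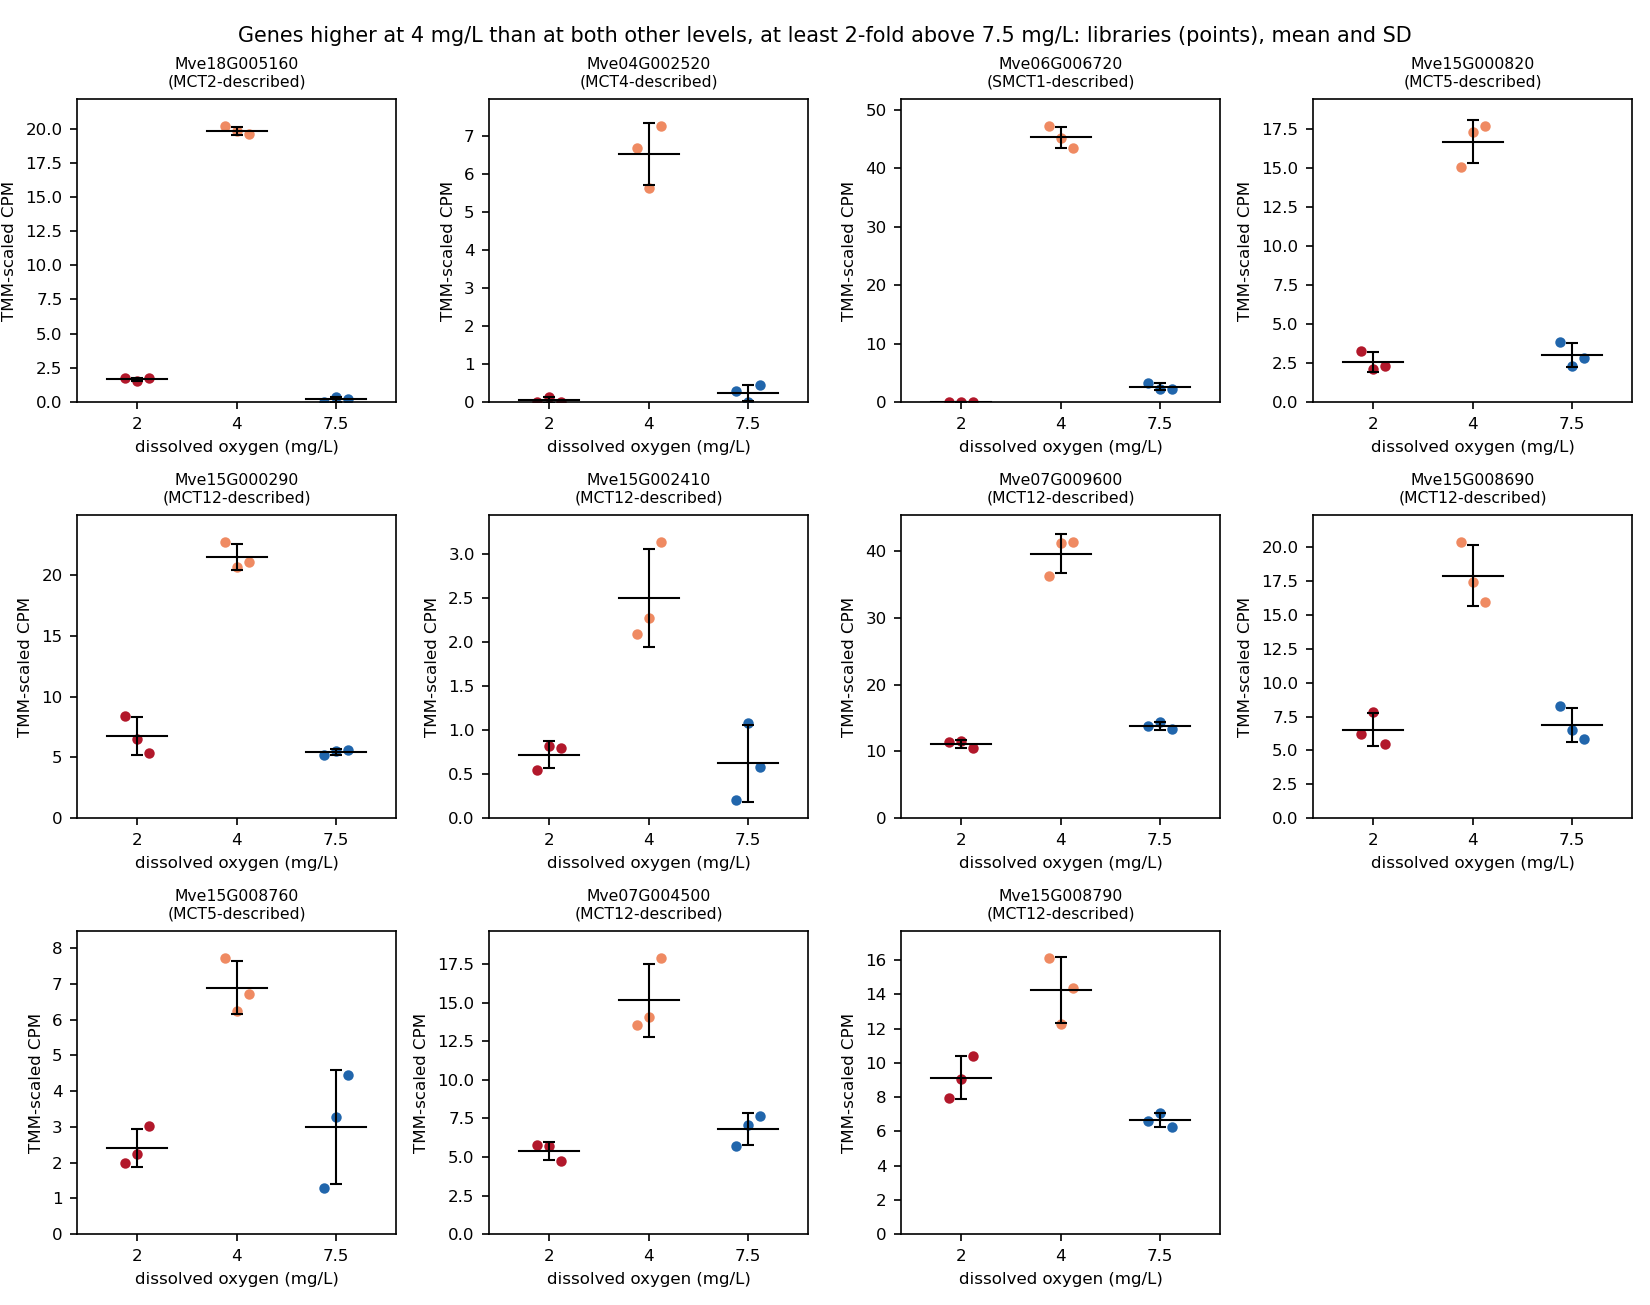
Level in TMM-scaled CPM (vertical axes, from 0) at 2, 4 and 7.5 mg/L oxygen for the transporter genes that were higher at 4 mg/L than at both other levels and at least 2-fold above 7.5 mg/L, leaving out those among the 8 most abundant; points are libraries, lines the mean and SD of 3. In Mve06G006720 the 2 mg/L libraries are all at 0 and the 4 mg/L libraries lie between 43.5 and 47.2.

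MCT9 carries carnitine in humans, and the more abundant pair of the 3 genes with this name was higher at both low levels. Mve14G007010 had 63.5, 58.1 and 62.2 CPM at 2 mg/L, 55.5, 55.2 and 62.0 at 4 mg/L, against 31.8, 29.3 and 33.2 at 7.5 mg/L. It was 1.95-fold higher at 2 mg/L and 1.83-fold at 4 mg/L (edgeR adjusted p = 6.54e-09 and 1.55e-08), with the low levels overlapping each other (adjusted p = 0.285). Mve07G004520 was 1.66-fold and 1.34-fold higher at 2 and 4 mg/L (adjusted p = 3.88e-06 and 0.000714). Mve13G000100, which passed the level filter only through the controls, had 0.577, 0.55 and 0.556 CPM at 2 mg/L, 0.768, 1.23 and 0.869 at 4 mg/L, against 3.21, 2.34 and 2.86 at 7.5 mg/L. It was 4.96-fold lower at 2 mg/L and 2.92-fold lower at 4 mg/L, differences that the filter favoured and that are given with no test. Below the filter, MCT9-described genes went different ways. Mve13G010410 had means of 0, 2.81 and 0 CPM at 2, 4 and 7.5 mg/L, while Mve04G002120 had 1.17, 0.627 and 1.75 CPM.

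MCT14 and MCT6 complete the MCT-described genes. The most abundant MCT14-described gene, Mve07G004570, had 124, 133 and 135 CPM at 2 mg/L, 135, 128 and 128 at 4 mg/L, against 147, 146.0 and 143 at 7.5 mg/L. Its control libraries were all above the rest, but by small folds of 1.11 and 1.12 (edgeR adjusted p = 0.00862 and 0.00624 at 2 and 4 mg/L). Mve09G012190 had 1.53, 1.44 and 1.19 CPM at 2 mg/L, 1.72, 1.45 and 1.52 at 4 mg/L, against 6.63, 5.82 and 3.83 at 7.5 mg/L, and was 3.89-fold and 3.46-fold lower at 2 and 4 mg/L (adjusted p = 1.88e-05 and 3.03e-05). Mve02G000120 was 1.68-fold higher at 4 mg/L (adjusted p = 0.00089) and Mve10G011130 passed no test. The MCT6-described gene Mve13G011000, annotated with creatine transport, was 1.95-fold lower at 2 mg/L (adjusted p = 0.00754), a call lost without 7.5 mg/L replicate 3 (adjusted p = 0.0614).

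Of the 7 SMCT-described genes, 1 was higher and 4 were lower at 2 mg/L, and 3 were higher and 4 lower at 4 mg/L, than at 7.5 mg/L, beside 31.5% and 32% of all genes in the 2 mg/L comparison and 35.4% and 34.5% in the other. The leading pair by FPKM was lower at 4 mg/L. Mve17G009100 had 209, 228 and 208 CPM at 2 mg/L, 90.4, 97.8 and 101 at 4 mg/L, against 198.9, 199.5 and 217.9 at 7.5 mg/L. It was 2.13-fold lower at 4 than at 7.5 mg/L (edgeR adjusted p = 1.94e-11), while at 2 mg/L the libraries overlapped the controls (log2 0.07 ± 0.0537, adjusted p = 0.289). With libraries scaled to total counts alone, which lowers all genes at 2 against 7.5 mg/L (median log2 -0.23, against -0.03 with TMM), this gene came out lower at 2 mg/L by 0.13 on the log2 scale, a value of -0.13 with adjusted p = 0.0314. Mve15G008810 had 117, 111 and 102 CPM at 2 mg/L, 67.3, 72.4 and 73.7 at 4 mg/L, against 155, 164 and 160.5 at 7.5 mg/L. Its 3 levels did not overlap, and it was 1.45-fold lower at 2 mg/L and 2.25-fold lower at 4 mg/L than the controls (adjusted p = 3.79e-07 and 1.51e-11).

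Mve03G002220, the SMCT2-described gene, had 29.6, 31.1 and 32.8 CPM at 2 mg/L, 25, 24.3 and 26.1 at 4 mg/L, against 52.4, 47.4 and 50.6 at 7.5 mg/L, and was 1.61-fold and 1.99-fold lower at 2 and 4 mg/L (edgeR adjusted p = 6.59e-07 and 4.72e-09). Mve01G020240 had 51.7, 42.9 and 50.9 CPM at 2 mg/L, 75.6, 73.1 and 80.7 at 4 mg/L, against 56.8, 69.5 and 56.1 at 7.5 mg/L. The groups did not overlap, with 2 mg/L 1.25-fold below and 4 mg/L 1.26-fold above the controls (adjusted p = 0.00404 and 0.00288). Mve15G002900 was higher at both, with 4.21, 6.22 and 6.16 CPM at 2 mg/L, 6.33, 6.75 and 6.42 at 4 mg/L, against 2.75, 2.31 and 3.39 at 7.5 mg/L (1.96-fold and 2.31-fold, adjusted p = 0.00129 and 0.000142).

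Mve06G006720 (SMCT1; chr6:22091018-22105768) had the widest ratio between oxygen levels of the 37 genes. It had 0 counts in all 3 libraries at 2 mg/L, 47.2, 45.3 and 43.5 CPM at 4 mg/L, against 3.31, 2.31 and 2.28 CPM at 7.5 mg/L. It was 17.3-fold higher at 4 than at 7.5 mg/L (log2 4.11 ± 0.154 SE), given with no test because its 4 mg/L libraries carried it past the level filter. At 2 mg/L it was at least 72.4-fold lower than at 7.5 mg/L (edgeR adjusted p = 2.46e-09) and at least 1264-fold lower than at 4 mg/L, taking a floor of 3 counts over the group's 3 libraries. The floor treats counts as independent, and even low counts outnumbered odd ones in the table, with 2649 values of 2 and 1855 of 1, so these bounds may be too high.

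Genes of digestive enzymes that stand in the digestive gland marker list took the same order of levels as Mve06G006720 and Mve04G002520, and were picked out after their values were seen. Alpha-amylase Mve02G006580 averaged 0, 9.41 and 1.12 CPM at 2, 4 and 7.5 mg/L, trypsin-like Mve01G019500 averaged 0.146, 12.7 and 1.54, and cathepsin L1-like Mve17G004030 averaged 0.273, 43.5 and 3.49. The list of 15 was mixed. Against 7.5 mg/L, 3 genes were higher, 10 lower and 2 not called at 2 mg/L, beside 31.5% higher and 32% lower of all genes. At 4 mg/L 8 were higher, 3 lower and 4 not called, beside 35.4% and 34.5%. The part of such tissue in the level of either transporter was not tested.

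Neighbouring transporter genes moved together in some runs and apart in others. Taking genes whose neighbours lay within 100 kb, 11 of the 37 genes formed 4 runs. The pair Mve17G009100 and Mve17G009110 on chromosome 17 spans 51.6 kb (chr17:32364694-32416300), with no gene between them. Mve17G009110 had 24.5, 23.0 and 24.6 CPM at 2 mg/L, 7.80, 7.55 and 8.23 at 4 mg/L, against 20.8, 19.6 and 22.4 at 7.5 mg/L, and was 2.66-fold lower at 4 mg/L (edgeR adjusted p = 4.18e-09) with no call at 2 mg/L (adjusted p = 0.0966), as for its neighbour. The pair Mve06G012330 and Mve06G012340 on chromosome 6 (chr6:40192447-40239476), also adjacent, were both higher at 4 mg/L but went opposite ways at 2 mg/L. Mve06G012340 had 18.2, 16.7 and 18.4 CPM at 2 mg/L, 43.7, 40.6 and 43.9 at 4 mg/L, against 27.4, 27.2 and 29.9 at 7.5 mg/L, and so was 1.58-fold lower at 2 mg/L and 1.52-fold higher at 4 mg/L (adjusted p = 3.6e-06 and 5.28e-06). On chromosome 7, Mve07G004500 and Mve07G004520, 95.7 kb from end to end, differed at 2 mg/L, where only the second was higher.

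The longest run holds 5 transporter genes within 289.6 kb of chromosome 15 (chr15:33352564-33642191), with 10 other genes among them. Of those 10, Mve15G008750 is itself described as MCT12 but lay below the level filter. In gene order, Mve15G008650 (MCT5), Mve15G008690 (MCT12), Mve15G008760 (MCT5) and Mve15G008790 (MCT12) were all higher at 4 mg/L, and Mve15G008810 (SMCT1) at the end of the run was lower. Mve15G008690 had 6.24, 7.87 and 5.49 CPM at 2 mg/L, 20.4, 17.4 and 15.9 at 4 mg/L, against 8.30, 6.49 and 5.84 at 7.5 mg/L (2.61-fold at 4 mg/L, edgeR adjusted p = 1.78e-06). Mve15G008760 had 2.00, 2.23 and 3.02 CPM at 2 mg/L, 7.71, 6.25 and 6.70 at 4 mg/L, against 1.29, 3.27 and 4.44 at 7.5 mg/L, its controls being the most scattered. At 2 mg/L it did not pass, but without 7.5 mg/L replicate 1 it was lower by 0.68 on the log2 scale, a value of -0.68 with adjusted p = 0.0381. Mve15G008790 had 7.94, 9.04 and 10.4 CPM at 2 mg/L, 16.1, 12.3 and 14.4 at 4 mg/L, against 6.59, 7.07 and 6.28 at 7.5 mg/L. Its 2.14-fold rise at 4 mg/L (adjusted p = 7.1e-06) stood apart from the controls. Its 1.37-fold rise at 2 mg/L (adjusted p = 0.0175) was lost without 7.5 mg/L replicate 3 or 2 mg/L replicate 3 (adjusted p = 0.0558 and 0.08). That rise was also lost with total counts (edgeR adjusted p = 0.16) and in limma on log2 FPKM with either pseudocount (adjusted p = 0.138 and 0.128).

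**Figure D5:**
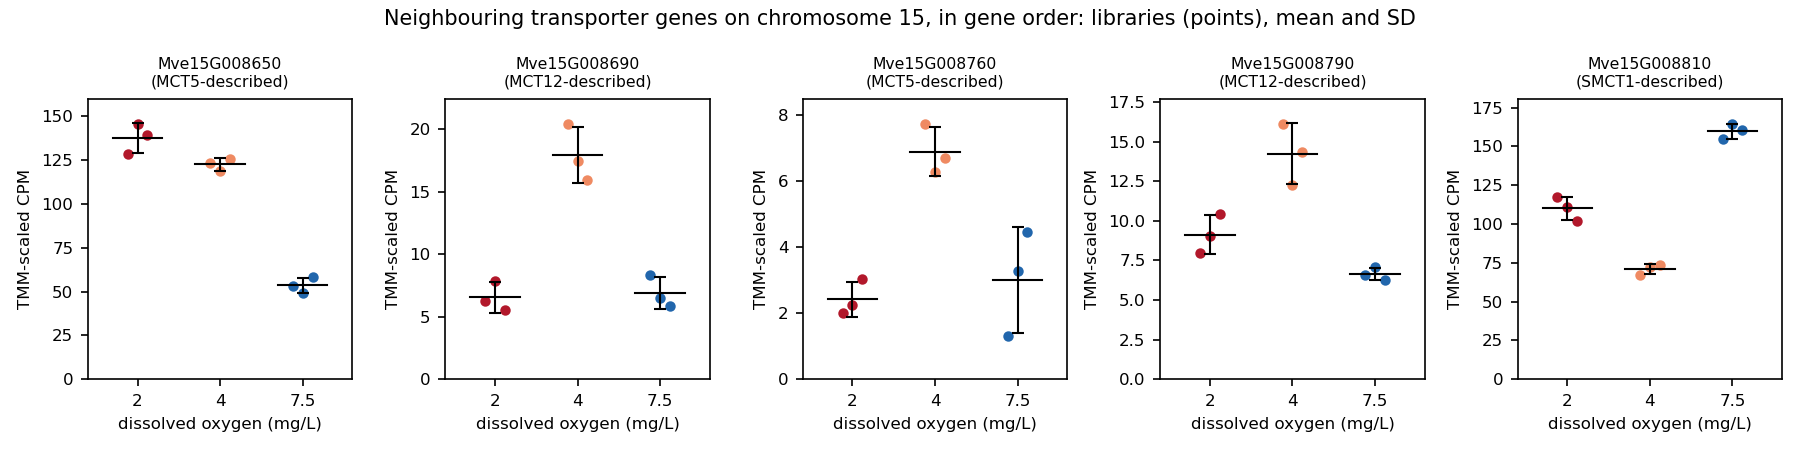
Level in TMM-scaled CPM (vertical axes, each from 0 on its own scale) at 2, 4 and 7.5 mg/L oxygen for the 5 neighbouring transporter genes of chromosome 15, in gene order; points are libraries, lines the mean and SD of 3. The first 4 genes are higher at 4 than at 7.5 mg/L and Mve15G008810 is 2.25-fold lower.

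Of the other genes in this stretch, 6 were abundant enough to be tested and did not share one direction. Mve15G008680, described as the translation factor eIF4A, averaged 1592, 1271 and 1509 CPM at 2, 4 and 7.5 mg/L. Mve15G008730, described as a G-protein coupled receptor, averaged 2.64, 1.04 and 7.10 CPM and was 6.82-fold lower at 4 mg/L (edgeR adjusted p = 2.33e-06). Of the 6 genes, 1 was higher and 4 were lower at 4 than at 7.5 mg/L, and 1 did not pass. Of all genes tested, 35.4% were higher and 34.5% lower in that comparison, 69.9% in either direction.

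The 42 described genes below the level filter held the same leaning towards 4 mg/L. Of these, 24 had their highest mean FPKM at 4 mg/L (57.1%), beside 36.8% of all genes below the filter that had a count. Counts in the 4 mg/L libraries alone were found for 11 of the 42 (26.2%, beside 10.1% of all such genes), in the 2 mg/L libraries alone for 1 and in the 7.5 mg/L libraries alone for 2. Mve18G005180, an MCT2-described gene 1 gene away from Mve18G005160, had 0.136, 0 and 0 CPM at 2 mg/L, 3.69, 3.60 and 3.60 at 4 mg/L, against 0, 0 and 0.234 at 7.5 mg/L. Its libraries at 4 mg/L were above all others, as for that neighbour, whose 2 mg/L libraries also lay above its controls. Mve02G002730, described as SMCT2-like, had 3.13, 2.53 and 3.1 CPM at 4 mg/L and 0 counts in the 6 other libraries.

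With no level filter, all 79 genes could be tested in 1 fit over 24722 genes. At 4 mg/L 36 of the 79 were higher and 12 lower than at 7.5 mg/L (45.6% and 15.2%, beside 26.8% and 24.9% of all genes). At 2 mg/L 15 were higher and 15 lower (19% each, beside 22.4% and 22.6%). Between the low levels 9 were higher and 33 lower at 2 than at 4 mg/L (11.4% and 41.8%, beside 22.8% and 23.9%). Values lay close to the filter on both sides. Mve16G012660 with a mean of 1.01 FPKM and Mve15G002410 with 1.02 lay just inside, and Mve02G012120 with 0.885 and Mve04G002120 with 0.883 just outside. Of the 37 genes, 27 averaged at least 1 FPKM at every oxygen level, 3 only at 4 mg/L (Mve04G002520, Mve15G002410 and Mve18G005160) and 1 only at 7.5 mg/L.

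Genes of the enzymes and carriers that make, use or accompany the transported acids were counted from lists of words in the descriptions. Neuroplastin, 1 of the glycoproteins that escort MCTs to the membrane in mammals, was represented by Mve10G007140, with 535, 536 and 530.2 CPM at 2 mg/L, 702, 697 and 682 at 4 mg/L, against 558, 569 and 549 at 7.5 mg/L. It was 1.24-fold higher at 4 mg/L (edgeR adjusted p = 1.54e-07), and at 2 mg/L its libraries lay below the controls by an amount that did not pass (adjusted p = 0.0791). The list held this gene alone.

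The list of opine and lactate dehydrogenases gave 4 tested genes, of which 3 were described as octopine dehydrogenase, which reduces pyruvate and so regenerates the electron acceptor of glycolysis. At 2 mg/L 2 of the 4 were higher and 2 lower, and at 4 mg/L 2 were higher, 1 lower and 1 did not pass, beside 63.5% and 69.9% of all genes called in either direction at 2 and 4 mg/L. The remaining gene, Mve06G007880, was described as mitochondrial D-lactate dehydrogenase, an enzyme that oxidises D-lactate to pyruvate, and averaged 10.7, 17.1 and 15 CPM at 2, 4 and 7.5 mg/L. Octopine dehydrogenase Mve03G010040 averaged 55.6 ± 5.9 CPM at 2 mg/L, 24.9 ± 1.92 at 4 mg/L and 17.8 ± 0.28 at 7.5 mg/L (SD, n = 3), 3.13-fold and 1.4-fold above the controls (edgeR adjusted p = 1.11e-10 and 0.000193). Mve03G009440 moved the same way, 2.23-fold and 1.52-fold (adjusted p = 2.19e-06 and 0.00122). The copy next to the first, Mve03G010050, was 3.91-fold lower at 2 mg/L and 1.72-fold lower at 4 mg/L (adjusted p = 6.63e-06 and 0.0099), with means of 1.71, 3.89 and 6.68 CPM.

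The next list held 11 genes of pyruvate kinase, alanine aminotransferase, pyruvate carboxylase, the mitochondrial pyruvate carrier, and pyruvate dehydrogenase with its regulators. At 2 mg/L 2 were higher and 3 lower, beside 31.5% and 32% of all genes. At 4 mg/L 6 were higher and 1 lower, beside 35.4% and 34.5%. The pyruvate kinase and carrier genes were not called at 4 mg/L. Pyruvate dehydrogenase kinase Mve07G004130, which switches the dehydrogenase off, averaged 50.8 ± 1.51 CPM at 2 mg/L, 45.4 ± 2.18 at 4 mg/L and 24.2 ± 1.54 at 7.5 mg/L (2.1-fold and 1.88-fold, edgeR adjusted p = 1.97e-09 and 1.1e-08). The regulatory subunit of the opposing phosphatase, Mve06G009930, averaged 4.27, 13 and 3.78 CPM and was 3.42-fold higher at 4 mg/L (adjusted p = 5.36e-07). The mitochondrial pyruvate carrier gene Mve05G009440 passed no test, with means of 18.8, 21.6 and 19.0 CPM.

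Ketone body and acetate enzymes had no gene called higher at either low level. Of 12 tested genes, 0 were higher and 9 lower at 2 mg/L, and 0 were higher and 7 lower at 4 mg/L, than at 7.5 mg/L, where 32% and 34.5% of all genes were lower. Acetyl-CoA acetyltransferase Mve05G003220 averaged 12.8, 21.5 and 27.8 CPM at 2, 4 and 7.5 mg/L, and acetoacetyl-CoA synthetase Mve11G002070 averaged 5.98, 9.06 and 13.9. The 3-hydroxybutyrate dehydrogenase gene Mve05G016520 had 0 counts in all libraries at 2 mg/L, 2.06, 2.43 and 2.11 CPM at 4 mg/L, against 3.42, 4.5 and 4.03 at 7.5 mg/L, at least 112-fold lower at 2 than at 7.5 mg/L by the same floor. The transferase that activates acetoacetate, Mve03G018820, was lowest at 4 mg/L, with means of 7.96, 5.11 and 10.3 CPM. Its call at 2 against 7.5 mg/L (edgeR adjusted p = 0.0459) was lost with the replicate number as a block (adjusted p = 0.0558). The call was also lost with median-of-ratios scaling (edgeR adjusted p = 0.0541) and in DESeq2 (adjusted p = 0.0573). Leaving out any 1 of 7 libraries, those other than 4 mg/L replicate 1 and 2 mg/L replicate 3, removed it as well (edgeR adjusted p = 0.0504 to 0.15). The call of Mve05G016520 at 4 against 7.5 mg/L (adjusted p = 0.0201) was lost without 7.5 mg/L replicate 2 or 3 or 4 mg/L replicate 1 or 3 (adjusted p = 0.079, 0.0522, 0.0611 and 0.0541).

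Among 9 genes tied to the other substrates of the mammalian family, 3 were higher and 1 lower at 2 mg/L, where 31.5% and 32% of all genes were, and 5 were higher and 1 lower at 4 mg/L, where 35.4% and 34.5% were. Arginine kinase Mve05G010230, the phosphagen enzyme that stands in for creatine kinase in molluscs, averaged 2947 ± 32 CPM at 2 mg/L, 2900 ± 116 at 4 mg/L and 1078 ± 8.19 at 7.5 mg/L (2.73-fold and 2.69-fold, edgeR adjusted p = 2.62e-16 and 1.87e-16). Of the 12 muscle markers, 9 were higher and 1 lower at 2 mg/L, beside 31.5% and 32% of all genes. At 4 mg/L 7 were higher and 3 lower, beside 35.4% and 34.5%, and their sum lay near the control range. The part of muscle in the level of the arginine kinase gene was not tested. Iodothyronine deiodinase Mve10G007350, which converts thyroid hormones in vertebrates, averaged 1.93, 3.46 and 8.42 CPM (4.37-fold and 2.43-fold lower at 2 and 4 mg/L, adjusted p = 9.79e-07 and 0.0001).

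Of 26 glucose transporters and proton or bicarbonate exchangers, 5 were higher and 11 lower at 2 mg/L, and 13 were higher and 6 lower at 4 mg/L, with all genes at 31.5% and 32% in the 2 mg/L comparison and 35.4% and 34.5% in the other. The facilitated glucose transporter gene Mve04G001160 averaged 88.3 ± 6.45 CPM at 2 mg/L, 49.3 ± 3.1 at 4 mg/L and 10.3 ± 1.45 at 7.5 mg/L (8.6-fold and 4.8-fold, edgeR adjusted p = 5.82e-14 and 2.49e-12). Its neighbour Mve04G001170 was 1.91-fold lower at 2 mg/L (edgeR adjusted p = 0.00414). At 4 mg/L it was 3.3-fold higher, given with no test because its 4 mg/L libraries carried it past the level filter. The sodium/hydrogen exchanger gene Mve06G008550, whose protein family exports protons, was 4-fold and 3.69-fold higher at 2 and 4 mg/L (adjusted p = 4.49e-11 and 6.91e-11). The sodium bicarbonate cotransporter gene Mve19G006690 had 92.6, 103 and 88.5 CPM at 2 mg/L, 0.891, 0.739 and 1.58 at 4 mg/L, against 0.872, 0.526 and 0.35 at 7.5 mg/L, so that only the 2 mg/L libraries were high. Another exchanger gene, Mve13G001290, had 4.64, 4.38 and 3.35 CPM at 4 mg/L and 0 counts in the 6 other libraries. Mve19G006690 and Mve13G001290 each passed the level filter only through the level at which they were high, so the filter favoured these differences. They stand in the counts of the 26 genes.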

How the data were processed

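Messenger RNA was sequenced from 9 gill libraries, 3 per oxygen level, with 1 batch date in the labels. Library totals ran from 26994566 to 32246147 counts, and 20316 to 20958 genes had a count. The deposited table holds the authors' raw counts per gene and, beside them, the authors' FPKM, scaled by gene length and mapped fragments, per the file headers. Per the submitters' processing notes, the tools were StringTie 2.1.6, HISAT2 2.2.1, cutadapt 1.9, edgeR and DESeq2, with no role or order stated. Genome build and use of strand in counting: not given in the sources used here.

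Deposited counts of genes averaging at least 1 FPKM were fitted with edgeR 4.0.16 (R 4.3.3; TMM scaling, quasi-likelihood test, 1 coefficient per oxygen level, 9 libraries), and p-values were adjusted by Benjamini-Hochberg over 15397 genes, with a threshold of 0.05. The script was tested on simulated counts. Levels are TMM-scaled CPM; levels of different genes are compared in FPKM. Alternatives used DESeq2 1.42.0, limma 3.58.1, other scalings, filters and subsets of libraries. Members, lists and markers were chosen with earlier results of these data known. Genes named with all libraries are Mve07G009680, the 6 largest called changes each way per comparison, the 8 most abundant, runs of neighbours and all SMCT-described genes, 31 in all; from the other lists, the largest 2-fold changes and the most abundant gene, with further genes named where singled out after their values were seen.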

Additional observations from a re-analysis of the deposited data

Results flagged for a closer look

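For 5 transporter genes the changes at 4 and at 2 mg/L, each against 7.5 mg/L, passed the test in opposite directions. The test of 2 against 4 mg/L passed for each as well, and both changes against 7.5 mg/L share those libraries. Higher at 4 and lower at 2 mg/L were 4 of the 37 genes (10.8%), beside 4.87% of all genes tested. The reverse held for 1 gene (2.7%), beside 4.8% of all genes. Mve06G006720 (SMCT1) had a log2 fold change of -9.34 at 2 mg/L and 4.11 at 4 mg/L, where the first is a fitted value that depends on the prior count because all 2 mg/L libraries held 0 counts, and its 4 mg/L libraries carried it past the level filter. Mve07G009600 (MCT12) had -0.31 at 2 mg/L and 1.52 at 4 mg/L. Mve06G012340 (MCT12) had -0.66 at 2 mg/L and 0.60 at 4 mg/L. Mve01G020240 (SMCT1) had -0.33 at 2 mg/L and 0.33 at 4 mg/L. Mve05G010540 (MCT2) went the other way, with 0.39 at 2 mg/L and -0.20 at 4 mg/L (edgeR adjusted p = 0.000216 and 0.0239), its change at 2 mg/L did not pass in limma on log2 FPKM with either pseudocount (adjusted p = 0.0905 and 0.0811), and its change at 4 mg/L was lost without 7.5 mg/L replicate 1 or 3 or 4 mg/L replicate 3 (adjusted p = 0.0588, 0.0563 and 0.05).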

How the results depend on the processing

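Counts of called transporter genes moved by more than 1.5 times only where genes had to average at least 5 FPKM, which left 21 of the 37 genes: 14 were then higher at 4 against 7.5 mg/L in place of 22, and 10 lower at 2 against 4 mg/L in place of 17. Leaving out 1 library gave 10 to 11 genes higher and 11 to 14 lower at 2 against 7.5 mg/L, 22 higher and 8 to 9 lower at 4 against 7.5 mg/L, and 7 to 9 higher and 16 to 17 lower at 2 against 4 mg/L. Over the 31 genes named with all libraries and 19 settings, 1682 of 1731 values kept direction and call, 33 lost and 14 gained a call, and 2 turned round. Those turned with total counts alone, where Mve17G009100 had -0.13 at 2 against 7.5 mg/L (edgeR adjusted p = 0.0314) and Mve07G004570 had -0.13 at 2 against 4 mg/L (adjusted p = 0.0286). That scaling also put 35.9% of all calls at 2 against 7.5 mg/L higher in place of 49.6%, and moved the median of the MCT-described genes there to -0.14 from 0.06. It gave 16 transporter genes lower at 2 against 7.5 mg/L in place of 12. With the replicate number as a block, counts were 11 and 12, 22 and 9, and 8 and 17, and the call of Mve13G007530 between the low levels was lost (adjusted p = 0.0793), the only call of the 31 genes that it changed. Deviations of libraries that share a number correlated at -0.0287 to 0.00458, so no shared effect of the number was seen over all genes tested. What the numbers mark is not said in the labels. Of 1272 values of the 23 other genes named, 1229 kept direction and call. For arginine kinase Mve05G010230 at 2 against 4 mg/L, the log2 value of 0.02 became -0.11 with total counts (adjusted p = 0.00164) and -0.11 in limma on FPKM with either pseudocount (adjusted p = 0.0046 and 0.00443). Genes with few counts in a group, such as Mve04G002520, have uncertain folds.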
